A study of Mus musculus with 8 samples.

Results

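The 43 genes described here encode proteins that copy DNA during S phase, and they were listed by symbol for their known roles, with earlier results of these data known. All 43 had a row in the deposited table of 13708 genes. They were measured by messenger RNA sequencing of LSK cells, the sorted marrow fraction that lacks lineage antigens, carries Sca-1 and c-Kit and contains blood stem cells and multipotent progenitors. The 4 db/m samples came from mice labelled B6.BKS(D)-Leprdb/+ db/m, with 1 mutated allele of the leptin receptor gene. The 4 db/db samples came from mice labelled B6.BKS(D)-Leprdb/J, which have both alleles mutated and become obese and diabetic. All 8 samples carry the time of 6 months after diabetes, the db/m controls included, and the sex of the mice is not given in the labels. The sample titles all read db/m, so the genotype label set the groups, and replicate numbers only name samples within a group.

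DNA replication begins with licensing, in which the origin recognition complex, Cdc6 and Cdt1 load the ring-shaped Mcm2-7 helicase on DNA. Cdc45 and the GINS complex then join the helicase and start it, polymerases extend the new strands behind it, and Pcna, a ring clamp placed by the Rfc loader, holds the polymerases on DNA. The genes of this machinery are largely targets of E2F transcription factors and are transcribed as a cell passes from G1 into S phase. Long-term stem cells are mostly quiescent, whereas the multipotent progenitors that make up most of the LSK fraction divide often.

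Promoters are shown because E2F factors are known to act on many of these genes. RefSeq promoter windows in GRCm38.p6, of 300 bases around each start, were matched by symbol for 34 of the 43 genes. The other 9 are Mcm4, Gins1, Gins2, Gins4, Ccne2, Tipin, Prim2, Pole and Rfc2. An E2F word, TTTGGCGC, TTTCGCGC, TTTCCCGC or TTTGCCGC on either strand, was in a window of 14 of the 34 genes (41.2%). It was in 2.26% of all 32851 promoter windows, and in 4.54% of the 10417 genes of the table with a window. The word CCAAT, on either strand, was in a window of 20 of the 34 genes (58.8%), in 42.5% of the genes of the table and in 37.4% of all windows. E2F words can overlap each other, and an E2F word and a CCAAT shared bases in 1 of the 39 windows of replication genes. The 14 genes with an E2F word were Cdc6, Cdt1, Gins3, Hells, Lig1, Mcm3, Mcm5, Mcm6, Mcm7, Orc1, Pola1, Pold1, Rfc3 and Uhrf1.

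The 200 bases before the RefSeq start of 4 of these genes follow, 5′ to 3′ on the strand of the gene, with E2F words of either strand in capitals. Mcm6 has the highest level of the 43 genes, Mcm5 the licensing gene of smallest p, Orc1 a gene among several with db/db replicate 3 far above its group, and Pola1 the primer-making polymerase. In Mcm6 (chr1:128359706-128359905, minus strand) words begin 110, 106 and 47 bases before the start, and the first pair overlap. In Mcm5 (chr8:75109309-75109508, plus strand) an overlapping pair begins 153 and 149 bases before it. Orc1 (chr4:108579254-108579453, plus strand) has a word 27 bases before the start, and Pola1 (chrX:93632156-93632355, minus strand) has one 138 bases before it.
Mcm6: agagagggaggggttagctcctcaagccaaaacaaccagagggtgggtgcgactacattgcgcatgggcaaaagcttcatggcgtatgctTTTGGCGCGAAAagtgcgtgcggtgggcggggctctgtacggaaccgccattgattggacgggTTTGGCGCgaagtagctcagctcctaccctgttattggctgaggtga
Mcm5: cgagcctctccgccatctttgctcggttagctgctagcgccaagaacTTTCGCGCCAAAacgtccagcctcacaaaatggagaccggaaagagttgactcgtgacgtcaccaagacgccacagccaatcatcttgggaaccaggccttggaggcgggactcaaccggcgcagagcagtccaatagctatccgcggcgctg
Orc1: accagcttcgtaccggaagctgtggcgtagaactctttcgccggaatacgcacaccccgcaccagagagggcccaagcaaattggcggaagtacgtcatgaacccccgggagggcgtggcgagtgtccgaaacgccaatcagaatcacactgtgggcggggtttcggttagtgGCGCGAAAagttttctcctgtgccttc
Pola1: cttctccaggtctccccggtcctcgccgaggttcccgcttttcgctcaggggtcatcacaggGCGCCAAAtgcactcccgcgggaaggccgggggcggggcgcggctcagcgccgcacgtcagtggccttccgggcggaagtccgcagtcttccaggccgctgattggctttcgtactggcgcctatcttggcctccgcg

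These matches describe letters in a window and not binding. A replicate 3 library held the highest level of 41 of the 43 genes, which leaves little contrast in that respect between genes with and without a word. The size of the differences between libraries was not compared between these genes. Other forms of the E2F site were not searched, and a link between the words and the levels was not tested.

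Each library held between 27640853 and 42806327 counts on genes, and levels are given as CPM, a gene's counts per 1000000 counts of the library, with totals scaled by the TMM method. Values of a group are listed in the order of replicates 1 to 4. All 14 LSK and stem cell markers were in the table and none was at 0 in any library, but the sorted antigens did not behave alike. Kit, the c-Kit receptor, ranged from 563 to 1054 CPM, and the groups overlapped. Ly6a, which encodes the Sca-1 antigen of the sort, had 544, 568, 317 and 434 CPM in db/m. In db/db Ly6a had 134, 119.5, 91.7 and 178 CPM, all below each db/m library. Ly6a fell by 1.83 ± 0.24 (SE) on the log2 scale, with an adjusted p of 0.0445 by edgeR, and related Ly6 genes may share its reads. Without db/m replicate 2 or 4, or without db/db replicate 1, 2 or 3, no gene passed that threshold, Ly6a included. By their estimates 12 of the 14 markers were higher in db/db and 2 lower. The part of the Ly6a difference in the levels of the replication genes was not tested. Intergenic reads took 23.4% to 26.5% of uniquely mapped reads in db/m replicates 1, 2 and 4, and 5.15% to 12.2% in the other 5 libraries. Neither separate animals nor pooling are stated in the labels, so the spread behind each p-value is that of the deposited libraries and may be technical.

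Every replication gene was readily detected in both genotypes. The lowest count of any of the 43 genes in any library was 231, for Ccne2, and the genes together took between 0.664% and 0.999% of the counts of a library. In bulk RNA, fewer cells in S phase and less of these transcripts per cell cannot be told apart. With edgeR (quasi-likelihood), 0 replication genes passed an adjusted p under 0.05 between db/db and db/m, where 5 of all genes (0.0365%) did. At an unadjusted p under 0.05 there was 1 gene, Chaf1b, or 2.33% of the 43, against 15.3% of all genes tested. Chaf1b was higher in db/db, as were 7.78% of all genes at that threshold, where 7.54% were lower. The smallest adjusted p among the 43 genes was 0.320 by edgeR. The authors' deposited table gave none of the 43 genes a false discovery rate under 0.05, where 4.28% of all genes did, and the lowest was 0.349 for Chaf1b. edgeR's likelihood ratio test, run here as an alternative, called the same number of genes, 587, and gave Chaf1b the same adjusted p of 0.349. The deposited values and that alternative are therefore not counted as separate results. The groups overlapped in every replication gene, whereas they did not overlap in 9.03% of all genes.

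The log2 fold changes of db/db against db/m ran from -0.28 (Pold1) to 0.43 (Ccne1), with a median of -0.05 where all genes had 0.01. The median size of the log2 fold change, without its sign, was 0.09 among the replication genes and 0.20 among all genes. Log2 fold changes were negative in 33 of the 43 genes (76.7%) and in 48.6% of all genes, but that split changed with the libraries included. Without db/m replicate 3, 18 genes were negative and 25 positive, and the median was 0.05. Without db/db replicate 2, 19 were negative and 24 positive, with a median of 0.01. In the other fits without 1 library, 23 to 39 of the 43 genes were negative.

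The 95% interval of the log2 fold change lay inside a 2-fold change in either direction for 42 of the 43 genes (97.7%), against 67.5% of all genes. Ccne1 was the exception, with an interval from -0.69 to 1.55. For 29 genes (67.4%) the interval lay inside a 1.5-fold change, against 42.2% of all genes. Differences within these intervals were not excluded at this spread between libraries.

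**Figure D1:**
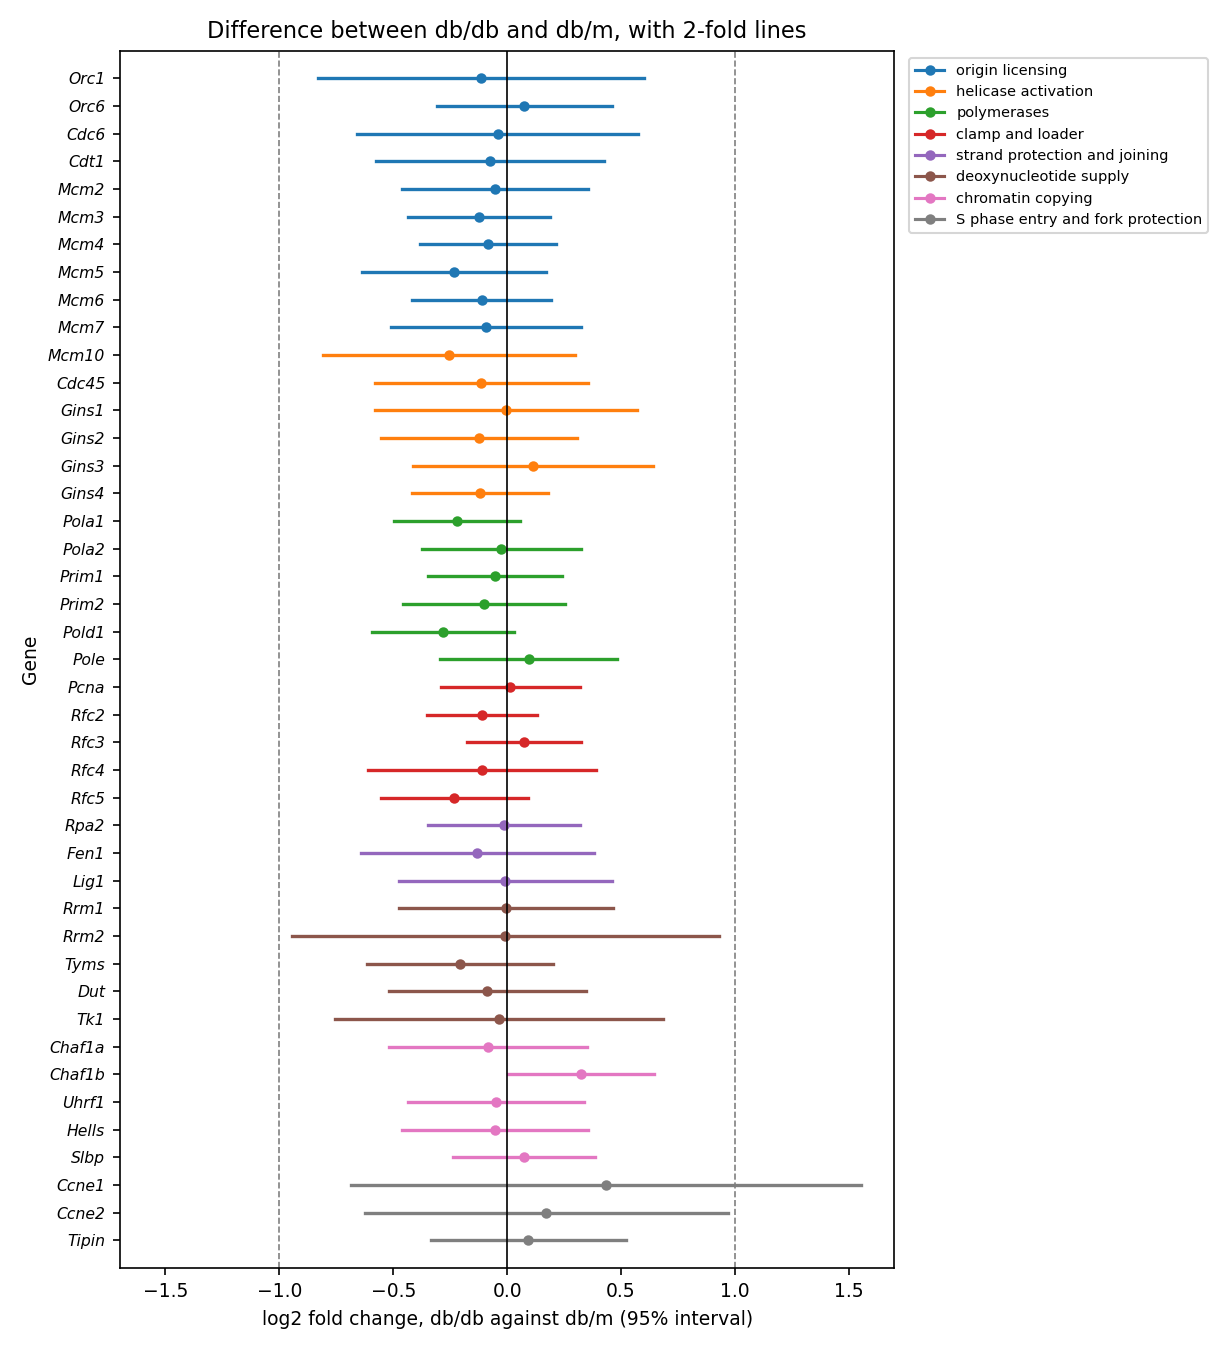
Log2 fold change of db/db against db/m (horizontal axis) for each of the 43 replication genes (vertical axis, coloured by role), with points for the estimate and bars for the 95% interval of edgeR's quasi-likelihood fit of 4 against 4 libraries. Dashed lines mark a 2-fold change, and only the bar of Ccne1 crosses one of them.

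The 10 genes of origin licensing include the most abundant transcripts of the set. Mcm6, a subunit of the replicative helicase on chromosome 1 from 128331591 to 128359656 in mm10, had 676, 835, 942 and 777 CPM in db/m replicates 1 to 4. In db/db it had 721, 704, 876 and 687 CPM. Replicate 3 was the highest library in each group, and the ranges overlapped. The log2 fold change was -0.11 ± 0.14 (SE), with a 95% interval from -0.42 to 0.19 and an adjusted p of 0.753 by edgeR.

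Mcm5, another helicase subunit, had the smallest p of the licensing genes. Its levels were 397, 582, 602 and 526 CPM in db/m replicates 1 to 4, with 426, 355, 584 and 425 CPM in db/db replicates 1 to 4. Thus 3 of the 4 db/db libraries lay below 3 of the 4 db/m libraries, and db/db replicate 3 lay among the latter. The log2 fold change was -0.23 ± 0.18 (SE), with an adjusted p of 0.585 by edgeR.

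Orc1, an origin recognition subunit that binds ATP, had 27.1, 31.3, 28.8 and 19.1 CPM in db/m. In db/db it had 15.5, 18.9, 44.4 and 19.4 CPM, so db/db replicate 3 was at over 2 times each of the other 3 db/db libraries. Orc6, a further origin recognition subunit, Cdc6 and Cdt1, the loaders of the helicase, had log2 fold changes of 0.07, -0.04 and -0.07, and Mcm2, Mcm3, Mcm4 and Mcm7 had -0.05, -0.12, -0.08 and -0.09.

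Per kilobase of gene length, the 6 subunits of the Mcm2-7 ring were not equally abundant. Mean levels over the 8 libraries were 268 CPM per kilobase for Mcm6, 215 for Mcm3, 208 for Mcm7, 142 for Mcm5, 136 for Mcm2 and 89.4 for Mcm4. Mcm6 was the highest and Mcm4 the lowest subunit in 8 of 8 libraries, and their means differed 3.00-fold. The ranges over the libraries overlapped for each pair of neighbours in this order, and Mcm3 and Mcm7 changed places between libraries. The length is the one deposited for each gene, so isoforms that use less of it would be underrated.

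**Figure D2:**
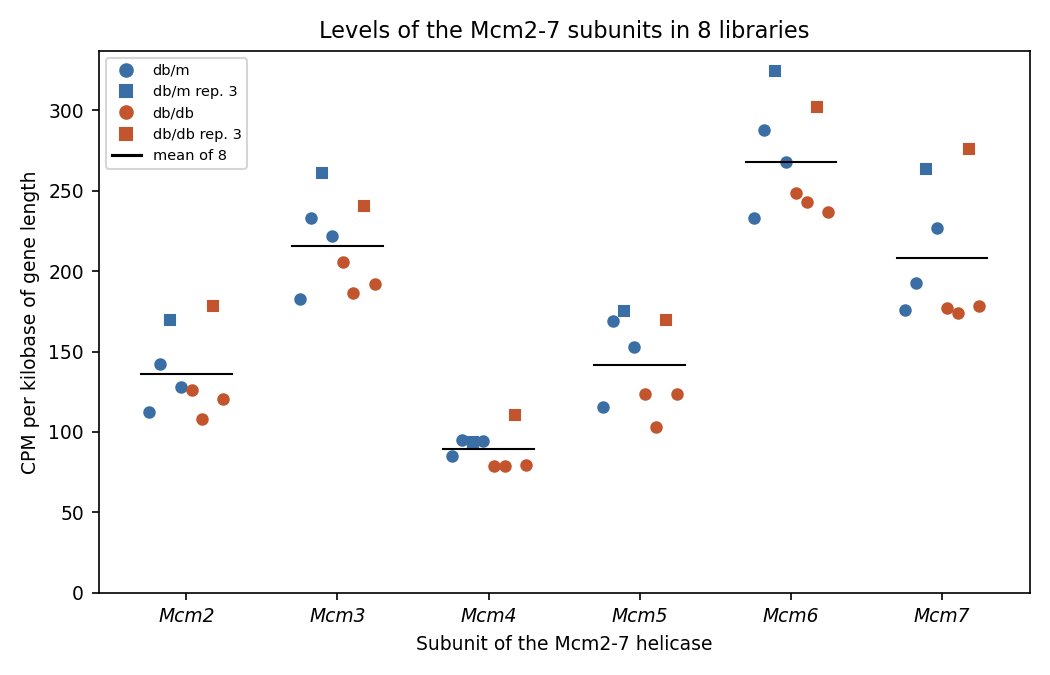
Level of each Mcm2-7 subunit gene (horizontal axis) as CPM per kilobase of deposited gene length (vertical axis), with 1 point for each of the 8 libraries and a line for their mean. Blue points are db/m, orange points db/db and squares replicate 3 of each group, and Mcm6 (mean 268) is above Mcm4 (mean 89.4) in each library.

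The genes that activate the helicase were less abundant. Mcm10, which helps the loaded helicase open DNA, had 45.8, 69.0, 91.7 and 59.998 CPM in db/m, against 42.7, 49.6, 82.1 and 48.8 CPM among db/db libraries. The log2 fold change was -0.26 ± 0.25 (SE, adjusted p of 0.674 by edgeR), and it moved to -0.069 when db/m replicate 3 was left out and to -0.50 when db/db replicate 3 was. Cdc45, which becomes part of the moving helicase, had 44.995, 65.5, 95.3 and 81.7 CPM in the 4 db/m libraries, with 64.8, 59.3, 79.05 and 62.8 CPM in those of db/db. Cdc45 had a log2 fold change of -0.11 ± 0.21 (SE, adjusted p of 0.844 by edgeR), and its db/db range lay within the db/m range. The 4 genes of the GINS complex had log2 fold changes of -0.01 (Gins1), -0.13 (Gins2), 0.11 (Gins3) and -0.12 (Gins4). Per kilobase, Gins3 had the lowest of the 4 mean levels at 9.71 CPM per kilobase and Gins4 the highest at 41.4, and Gins3 was lowest in 8 of 8 libraries.

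Among the polymerase genes Pold1, the catalytic subunit of polymerase delta, which copies the lagging strand, had both the highest level and the smallest p. It had 240.2, 338, 359 and 314 CPM in db/m, while db/db libraries had 269.9, 229, 279 and 251 CPM. All 4 db/db libraries lay below 3 of the db/m libraries and 3 of them above db/m replicate 1. Its log2 fold change was -0.28 ± 0.14 (SE), with a 95% interval from -0.59 to 0.03 and an adjusted p of 0.373 by edgeR. Pole, the catalytic subunit of the leading-strand polymerase epsilon, had a log2 fold change of 0.09. The 4 genes of polymerase alpha-primase, which makes the primers, had log2 fold changes of -0.22 (Pola1), -0.10 (Prim2), -0.05 (Prim1) and -0.03 (Pola2).

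The loader genes include the steadiest of the 43 between libraries. Rfc2, the most abundant loader subunit here, had 283, 296, 325 and 334 CPM in db/m, against 274, 278, 323 and 271 CPM among db/db libraries, and its highest library was 1.23 times its lowest. That was the smallest ratio of the 43 genes. Rfc2 had a log2 fold change of -0.11 ± 0.11 (SE, adjusted p of 0.676 by edgeR). Rfc5, another loader subunit, had 151, 165, 229.9 and 207 CPM in the 4 db/m libraries, with 159, 155, 178 and 148 CPM in those of db/db, with a log2 fold change of -0.23 ± 0.14 (SE, adjusted p of 0.484). Pcna, the clamp, had a mean of 232 ± 20.5 CPM in db/m, while db/db libraries had 234 ± 39.5 CPM (SD, n = 4 each), and its log2 fold change was 0.01. The loader subunits Rfc3 and Rfc4 had 0.07 and -0.11. GENCODE names 2 pseudogenes of Pcna and 1 of Tyms, which may share reads with these genes.

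Of the genes that protect and join strands, Fen1, which trims the flaps of lagging-strand fragments, had 153, 181, 258 and 206 CPM in db/m, against 176, 132, 267 and 154 CPM among db/db libraries. Lig1, the ligase that seals those fragments, had 148, 198, 232 and 225 CPM in the 4 db/m libraries, with 176, 158, 287 and 178 CPM in those of db/db. Group means of Lig1 were close, 201 ± 38.4 and 200 ± 59.0 CPM (SD, n = 4 each), while the libraries within each group spread widely. Log2 fold changes were -0.13 ± 0.23 for Fen1 and -0.01 ± 0.21 for Lig1 (SE), with adjusted p of 0.834 and 0.991 by edgeR. The single-strand binding subunit Rpa2 had a log2 fold change of -0.01.

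The 5 genes of deoxynucleotide supply differed more between libraries of a group than between the groups. Rrm1, the large subunit of ribonucleotide reductase, which makes deoxynucleotides, had 412, 432, 628 and 534 CPM in db/m, while db/db libraries had 419.5, 406, 719 and 453 CPM (log2 fold change -0.01 ± 0.21 SE, adjusted p of 0.993 by edgeR). Rrm2, the small subunit, whose level limits the enzyme, had 117, 145, 301 and 236 CPM in db/m. In db/db Rrm2 had 127, 109, 388 and 172 CPM, so the highest library was 3.57 times the lowest and the 2 highest of the 8 were replicate 3 of each group. Rrm2 lies on chromosome 12 from 24708254 to 24714146 and was chosen for description after its values were seen.

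Tyms, the enzyme that makes thymidylate, had 81.9, 109, 129 and 128 CPM in db/m. Its 4 db/db libraries had 86.8, 84.0, 129 and 89.8 CPM. The log2 fold change of Tyms was -0.21 ± 0.18 (SE, adjusted p of 0.641 by edgeR). Tk1, which salvages thymidine in dividing cells, spanned 2.47-fold over the 8 libraries, and Dut, which clears dUTP, spanned 1.75-fold. Their log2 fold changes were -0.04 and -0.09.

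Chaf1b, a subunit of the histone chaperone CAF-1 that places histones on new DNA, was the 1 gene at an unadjusted p under 0.05. It lies on chromosome 16 from 93883901 to 93906106. Its levels were 129, 126, 134 and 109.6 CPM in db/m, against 141, 152, 201 and 132 CPM among db/db libraries. Of the 4 db/db libraries 3 lay above all db/m libraries, and db/db replicate 4 lay below db/m replicate 3. Its log2 fold change was 0.33 ± 0.14 (SE), with a 95% interval from 0.0049 to 0.65, an unadjusted p of 0.0472 and an adjusted p of 0.320 by edgeR. Chaf1a, the large subunit of the same chaperone, had a log2 fold change of -0.08 ± 0.19 (SE). Over the alternatives run, Chaf1b had log2 fold changes of 0.18 to 0.39 and adjusted p of 0.278 to 0.714. The lowest of these folds was that without db/db replicate 3.

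Uhrf1, which brings the maintenance methylase to new DNA, had 251, 302, 384 and 280.5 CPM in the 4 db/m libraries, with 286, 237, 376 and 278 CPM in those of db/db, with a log2 fold change of -0.05 ± 0.17 (SE, adjusted p of 0.926 by edgeR). Hells, a chromatin remodeller, and Slbp, which binds histone messenger RNA, had log2 fold changes of -0.05 and 0.08.

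Cyclin E genes start S phase, and they had the widest intervals of the 43 genes along with Rrm2. Ccne1, on chromosome 7 from 38097984 to 38107490, had 24.2, 20.5, 42.6 and 23.2 CPM in db/m. In db/db it had 21.9, 12.7, 82.9 and 31.7 CPM, so db/db replicates 2 and 3 were the lowest and the highest of the 8 libraries and differed 6.51-fold. Its log2 fold change of 0.43 ± 0.50 (SE, adjusted p of 0.734 by edgeR) was -0.32 without db/db replicate 3. Ccne2 had a mean of 11.0 ± 5.01 CPM in db/m, while db/db libraries had 12.4 ± 5.21 CPM (SD, n = 4 each), with a log2 fold change of 0.17. For Ccne2, 53.9% of the exon length lies over exons of Ints8 on the opposite strand, so its reads are uncertain where the strand setting is not given. Shorter overlaps with opposite-strand exons, of 3.30% to 13.2% of the length, touch Gins2, Rfc4, Lig1 and Tk1. Tipin, which steadies stalled forks, had 118, 119.9, 170.1 and 147 CPM in db/m, against 112, 134, 203 and 143 CPM among db/db libraries (log2 fold change 0.09 ± 0.19 SE, adjusted p of 0.861).

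**Figure D3:**
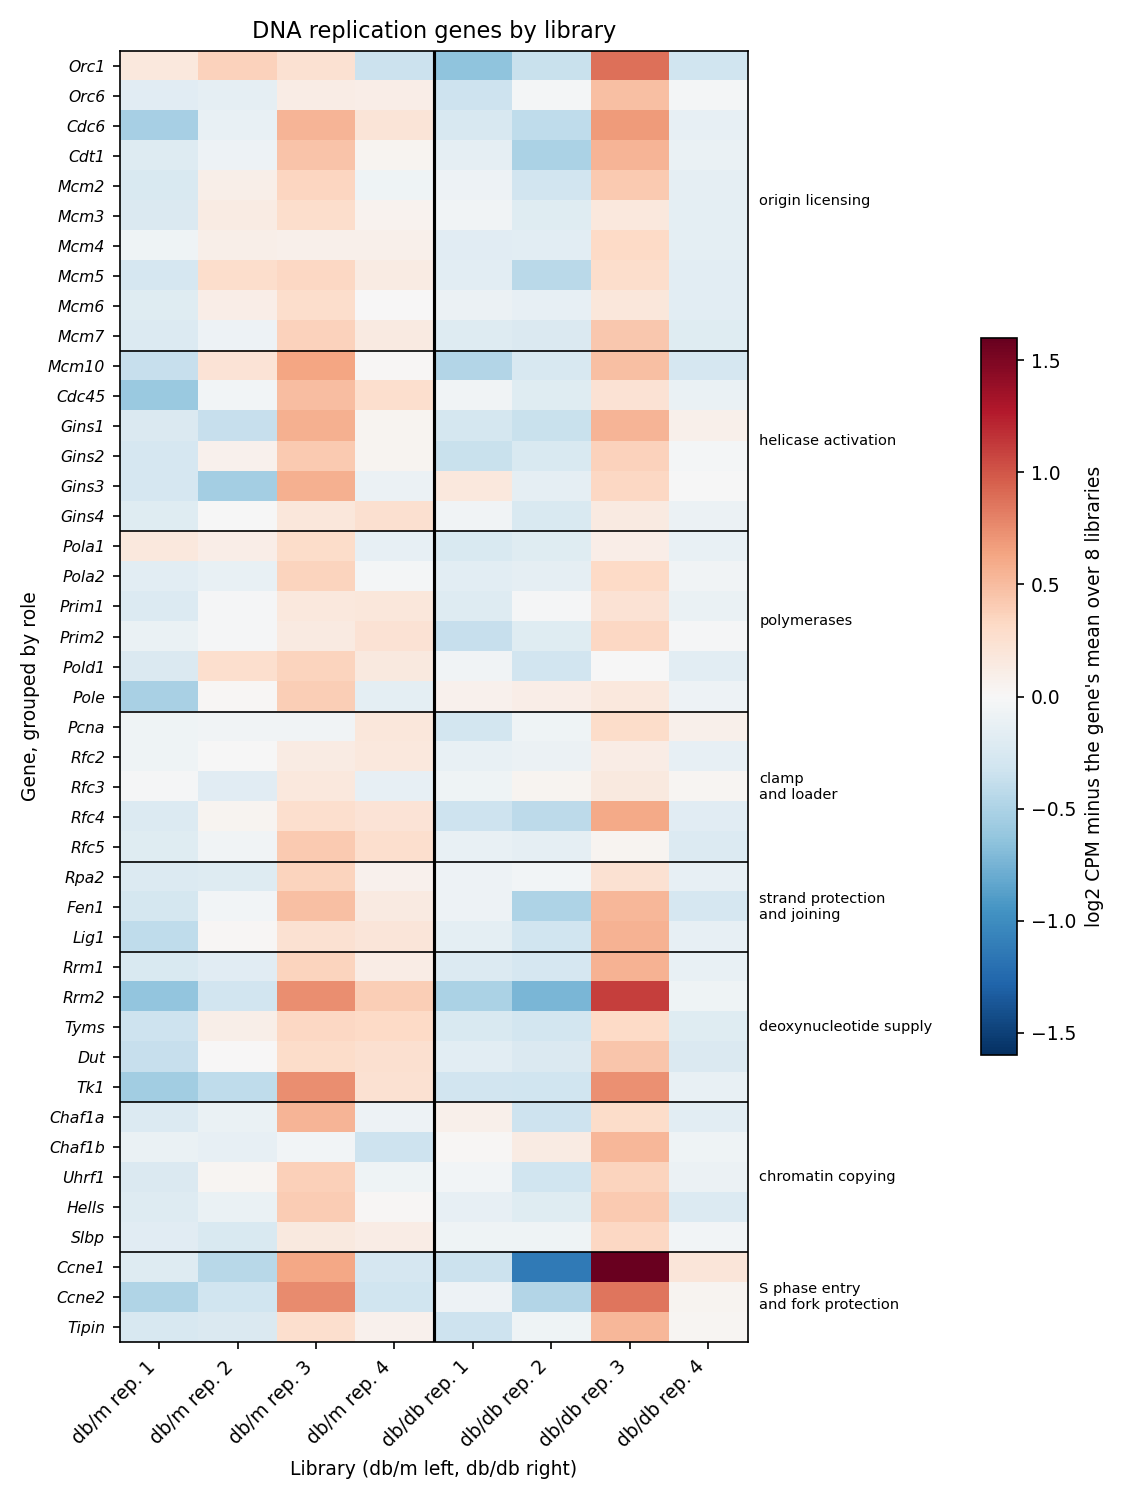
Log2 CPM of each of the 43 replication genes (rows, grouped by role) in each of the 8 libraries (columns), as the difference from the gene's own mean over the libraries, with red above and blue below that mean. The columns of db/m replicate 3 and db/db replicate 3 are red in 41 and 42 of the 43 rows.

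The pattern common to these genes was a difference between libraries within each genotype. The library labelled db/db replicate 3 was the highest db/db library for 43 of 43 genes, and db/m replicate 3 was the highest db/m library for 36 of 43. Replicate 3 was the highest in both groups for 36 genes (83.7%), against 11.3% of all genes tested. The highest of all 8 libraries was db/db replicate 3 for 22 genes, db/m replicate 3 for 19 and db/m replicate 4 for 2, Gins4 and Rfc2, so either replicate 3 held the highest value of 41 genes (95.3%), against 32% of all genes. The lowest was db/db replicate 2 for 13 genes, db/m replicate 1 for 12 and db/db replicate 1 for 10. These counts were made after the values were seen. The shared number 3 follows from the order of the samples and pairs nothing.

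Centred on each gene's own mean over the 8 libraries, the mean log2 CPM of the 43 genes was 0.42 in db/db replicate 3 and 0.35 in db/m replicate 3. The other db/m libraries had -0.24, -0.06 and 0.06 (replicates 1, 2 and 4), and those of db/db had -0.18, -0.25 and -0.11 (replicates 1, 2 and 4). Each of the 8 roles was above its mean in both replicate 3 libraries. The role levels there were 0.18 to 0.54 in db/m replicate 3 and 0.19 to 0.98 in db/db replicate 3, highest in both for S phase entry and fork protection.

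**Figure D4:**
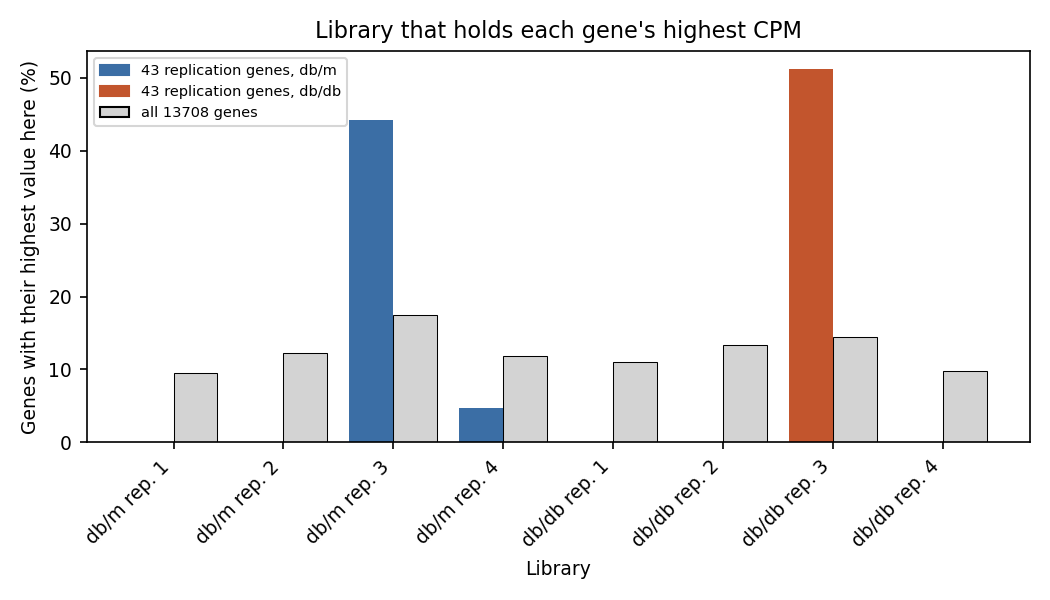
Share of genes (vertical axis, percent) whose highest CPM lies in each of the 8 libraries (horizontal axis), for the 43 replication genes (blue for db/m, orange for db/db) and for all 13708 genes (grey). Replication genes peak in db/db replicate 3 (51.2%) and db/m replicate 3 (44.2%), where all genes have 14.5% and 17.5%.

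Other measures also set these libraries apart. In db/db replicate 3 the 16 erythroid markers summed to 5565 CPM, the highest of the 8 libraries, against 1876 to 2632 CPM in the other db/db libraries and 971 to 1302 CPM in db/m. In db/m replicate 3 the erythroid sum was 1031 CPM, within the range of the other db/m libraries. Car2 gave 521 CPM of that sum, its lowest level in the 8 libraries. The mean centred log2 CPM of the erythroid markers, which weighs them equally, was -0.41 in db/m replicate 3. That was the highest of the db/m libraries, against -1.29 to -0.54 in the others. For 8 of the 16 markers db/m replicate 3 was the highest db/m library (50%, against 30.3% of all genes). The centred level of the 14 LSK and stem cell markers was lowest in db/m replicate 3 (-0.69), and it was -0.24 in db/m replicate 4, -0.23 in db/db replicate 3 and 0.05 to 0.46 in the other 5 libraries. The 12 granulocyte-monocyte markers in the table, of 13 listed, summed to 3377 to 13867 CPM in db/m and 2306 to 5610 CPM in db/db, highest in db/m replicate 4.

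The 8 plasma cell markers summed to 4224 CPM in db/m replicate 3 and 13020 to 18048 CPM in the other db/m libraries, and to 1367 to 6227 CPM in db/db. The 12 megakaryocyte markers summed to 844 to 1466 CPM in db/m and 1763 to 3179 CPM in db/db, and the 11 lymphoid markers of 12 listed to 996 to 1347 and 366 to 706 CPM. No marker in the table was at 0 in any library. db/m replicate 3 was also the db/m library of lowest intergenic share (12.2%). The part of these differences in the levels of the replication genes was not tested.

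**Figure D5:**
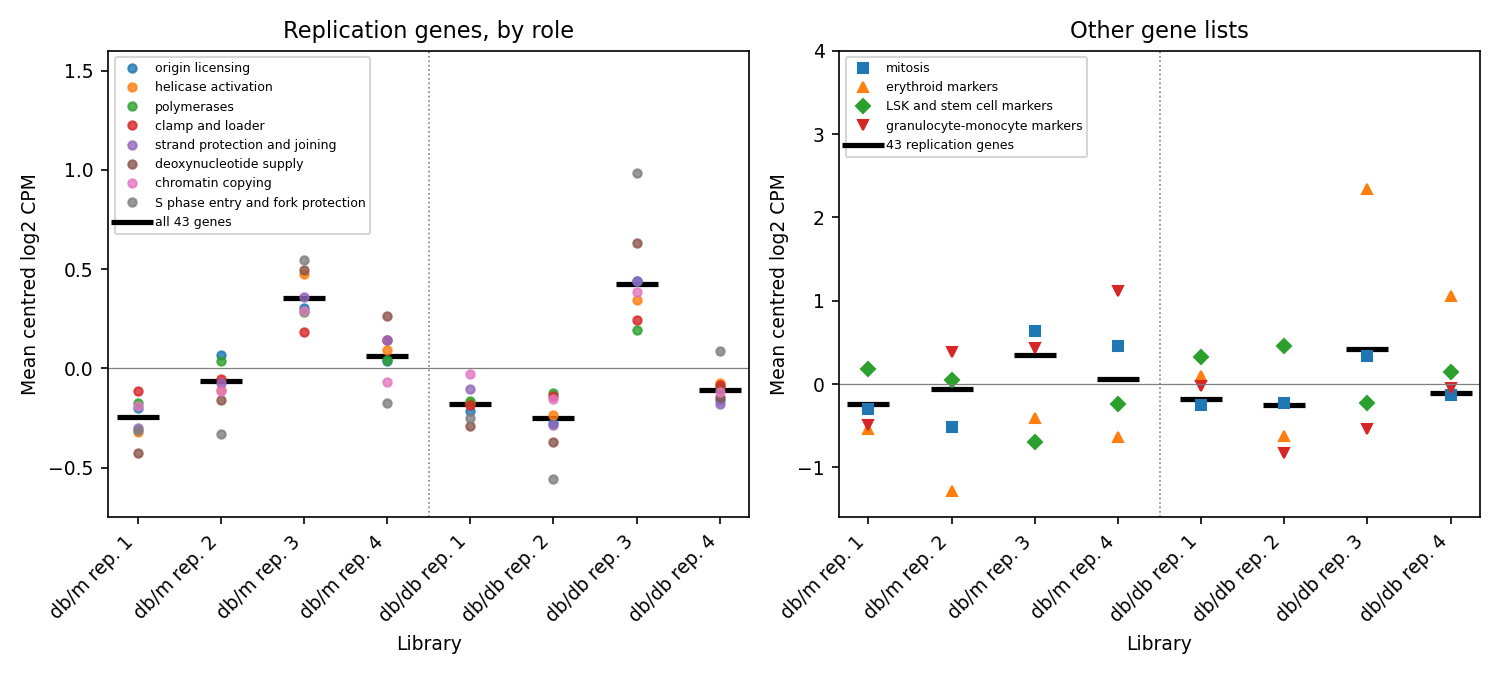
Mean centred log2 CPM (vertical axes) in each of the 8 libraries (horizontal axes) for the 8 roles of replication genes (left, coloured points) and for mitosis genes and 3 marker lists (right), with a black bar for the mean of all 43 replication genes. The bars of db/m replicate 3 (0.35) and db/db replicate 3 (0.42) are the highest. Erythroid markers peak in db/db replicate 3 (2.34). Among db/m libraries they are highest in replicate 3 (-0.41, against -1.29 to -0.54 in the others).

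Leaving out single libraries moved the comparison of genotypes. Without db/db replicate 3, 39 of 43 log2 fold changes were negative, with a median of -0.23, and 6 genes had an unadjusted p under 0.05 (13.95%, against 18.2% of all genes in that fit). These were Orc1, Mcm5, Mcm10, Pola1, Rfc4 and Tyms, all lower in db/db, and 0 had an adjusted p under 0.05. Without both replicate 3 libraries, an alternative added after the data were seen, 33 were negative, the median was -0.11 and 2 genes (Orc1 and Rfc4) had an unadjusted p under 0.05 (4.65%, against 18.9% of all genes). Without db/m replicates 1, 2 and 4, the libraries of high intergenic share, also added later, 41 were negative and the median was -0.35. The lone db/m library left there, replicate 3, is assumed to vary like the others. It was the highest db/m library for 36 of the 43 genes, which by itself lowers the fold changes. Intergenic share and that high level cannot be told apart in this fit. Without db/m replicate 1, 2 genes (Pold1 and Rfc5) had an unadjusted p under 0.05 (4.65%, against 18.7%). In no fit did any of the 43 genes have an adjusted p under 0.05.

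Other genes of the pathway were read from lists chosen with earlier results of these data known, beside all genes, of which 15.3% had an unadjusted p under 0.05 and 48.6% a negative log2 fold change. Of 11 further licensing genes in the table, of 12 listed, 0 had an adjusted p under 0.05 and 1 had an unadjusted p under 0.05, with a median log2 fold change of -0.04. That gene was Orc5, an origin recognition subunit, with 49.6, 49.7, 52.4 and 55.2 CPM in the 4 db/m libraries, with 65.8, 57.03, 95.9 and 65.8 CPM in those of db/db. All 4 db/db libraries lay above all db/m libraries, as groups were apart in 9.03% of all genes. The log2 fold change of Orc5 was 0.46 ± 0.16 (SE, adjusted p of 0.210 by edgeR), and 0.28 without db/db replicate 3. Mcmbp, which binds Mcm proteins, had a log2 fold change of -0.28 ± 0.20 (SE), which moved to -0.13 when db/m replicate 3 was left out and to -0.45 when db/m replicate 1 was.

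Of 27 further fork and firing genes 0 had an adjusted p under 0.05 and 1, Chtf8, a subunit of an alternative clamp loader, had an unadjusted p under 0.05. Its log2 fold change was -0.58 ± 0.20 (SE, adjusted p of 0.220 by edgeR), and that of Rif1, which times origin firing, was 0.19 ± 0.12 (SE). The median of that list was -0.05. Of 19 further genes of nucleotide supply 16 were lower and 3 higher in db/db by their estimates, where 48.6% of all genes were lower, and the list's median was -0.12. The mean centred log2 CPM of the list was -0.12, 0.15, 0.27 and -0.05 in db/m. In db/db it was -0.08, -0.13, 0.10 and -0.14, so db/m replicates 1 and 4 lay within the db/db range. At an unadjusted p under 0.05, 3 of the 19 genes were lower and 1 higher (21.1%, against 15.3% of all genes), and 0 had an adjusted p under 0.05. Nme2, a nucleoside diphosphate kinase, had 115, 174, 137 and 141 CPM in db/m, while db/db libraries had 87.4, 88.2, 108 and 101 CPM, without overlap. Nme2 had a log2 fold change of -0.56 ± 0.14 (SE, adjusted p of 0.111 by edgeR), and that of Cmpk1, a pyrimidine nucleotide kinase, was -0.33 ± 0.12 (SE, adjusted p of 0.237). DESeq2 and edgeR's likelihood ratio test called Nme2, with adjusted p of 0.0164 and 0.0265, in fits that called 767 and 587 of all 13708 genes. No other alternative called Nme2. Its close paralog Nme1 may share reads with it.

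Of 13 further genes that rebuild chromatin behind the fork, 0 had an unadjusted p under 0.05, with a median log2 fold change of -0.16. The lowest p were those of Daxx, a histone chaperone, at -0.32 ± 0.14 (SE) and Nasp, another, at -0.30 ± 0.17 (SE). Of 21 genes of S phase entry, the E2F and retinoblastoma families among them, 1 was higher and 1 lower at an unadjusted p under 0.05, with a median of 0.06. Tfdp2, a partner of E2F proteins, had a log2 fold change of 0.46 ± 0.16 (SE, adjusted p of 0.218 by edgeR), and Fbxo5, an inhibitor of the anaphase-promoting complex, had -0.48 ± 0.16 (SE, adjusted p of 0.209). Of 16 checkpoint genes 0 had an unadjusted p under 0.05, with a median of -0.01, and Atr, the kinase that answers stalled forks, had a log2 fold change of 0.15 ± 0.14 (SE) and its partner Atrip -0.19 ± 0.12 (SE).

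Mitosis genes were also high in the replicate 3 libraries. By their estimates 26 of 27 mitosis genes were lower in db/db, against 48.6% of all genes, and the median was -0.21 on the log2 scale. Among them 1, Top2a, which untangles DNA, had an unadjusted p under 0.05. Top2a had 328, 339.7, 579 and 495 CPM in db/m, against 299.8, 339, 353 and 312 CPM among db/db libraries, with a log2 fold change of -0.42 ± 0.19 (SE, adjusted p of 0.325 by edgeR), which was -0.26 without db/m replicate 3. Ndc80, a kinetochore protein, had -0.31 ± 0.18 (SE). Replicate 3 was the highest library in both groups for 23 of the 27 mitosis genes, against 11.3% of all genes, and the centred level of the list was 0.64 in db/m replicate 3, 0.46 in db/m replicate 4 and 0.34 in db/db replicate 3. In db/m replicates 1 and 2 it was -0.30 and -0.51, below each db/db library, and db/db replicates 1, 2 and 4 had -0.26, -0.23 and -0.13. The lower estimates in db/db thus rested on the high levels of db/m replicates 3 and 4.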

How the data were processed

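The authors deposited raw read counts per gene for 8 libraries, which the submitters' processing notes attribute to STAR 2.7.10a, featureCounts of Subread 2.0.3 and mm10. Neither the annotation nor the strand setting of the counting is given in the sources used here. The authors' deposited log2 fold change and p-value, with a false discovery rate, were read as given. Counts were fitted anew with edgeR 4.0.16 (R 4.3.3), using TMM scaling and filterByExpr, which left all 13708 genes. Genotype was the single term, tested by quasi-likelihood with Benjamini-Hochberg adjustment over all genes. The SE of a log2 fold change is its size divided by the square root of F, and 95% intervals use the fit's degrees of freedom. Alternatives included DESeq2 1.42.0, limma 3.58.1, other scalings and filters, each library left out, and the title prefix as a block. Each prefix occurs in 1 genotype only, so no comparison within a prefix could be made.

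The members and lists were chosen with earlier results of these data known. Named are, in each of 8 roles, the gene of smallest p and that of highest level, any gene at an unadjusted p under 0.05, and up to 2 genes of smallest p in each other list. Other genes given by name were chosen after their values were seen.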

Additional observations from a re-analysis of the deposited data

Results flagged for a closer look

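A library stood apart from the other 3 of its group, by a gap that exceeds Dixon's 95% critical share of the group's range, in 17 of the 86 groups of 4 libraries formed by the 43 genes. Chance alone flags about 5% of independent groups, and genes that move together are not independent. The share flagged among all genes was not computed, so the 17 of 86 cannot be called particular to these genes. In 12 of the 17 the library was db/db replicate 3, the highest of its group: Dut at 157 CPM, Hells at 95.1, Lig1 at 287, Mcm4 at 397, Mcm7 at 660.4, Orc1 at 44.4, Rfc2 at 323, Rfc4 at 96.7, Rrm1 at 719, Slbp at 233, Tk1 at 127 and Tyms at 129 CPM. In 3 it was db/m replicate 3, again the highest: Ccne1 at 42.6 CPM, Ccne2 at 18.5 and Chaf1a at 162 CPM. The others were Mcm4, lowest in db/m replicate 1 at 305 CPM, and Pcna, highest in db/m replicate 4 at 262 CPM. Of the 28 groups formed by the 14 other pathway genes named, 0 were flagged. Those 14 were named for their small p, which favours a small spread within groups, so they are no comparison for the 43 genes. What sets these libraries apart was not tested.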

How the results depend on the processing

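No paired analysis was possible because the replicate numbers were given in accession order and pair no samples. In every alternative run 0 of the 43 genes were called. Genes at an unadjusted p under 0.05 numbered 1 of 43 with all libraries and 0 with RLE scaling, DESeq2, limma-voom and the likelihood ratio test. They numbered 0 to 6 without 1 library and 2 without both replicate 3 libraries. Without db/m replicates 1, 2 and 4, whose intergenic share was high, the median log2 fold change moved to -0.35. The db/m library left there was replicate 3, the highest db/m library for most of the 43 genes. Among all genes 5 were called, against 0 with upper-quartile scaling or limma-voom, 14 with the title prefix as a correlated block, 192 with quality weights, 195 without both replicate 3 libraries, 587 with the likelihood ratio test, 767 with DESeq2 and 0 to 90 without 1 library.

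Some log2 fold changes changed sign, that of Ccne1, the largest of the 43, among them. With upper-quartile scaling Lig1 was 0.0125 and Rrm1 0.0134, and with quality weights Ccne1 was -0.071. Without both replicate 3 libraries Ccne1 was -0.035. Without db/m replicates 1, 2 and 4, Ccne1 was -0.18, Tipin -0.19, Atr -0.12 and Atrip 0.12. Without 1 library, Ccne1 ranged from -0.32 to 0.72, Cdc45 from -0.28 to 0.042, Fen1 from -0.37 to 0.010, Lig1 from -0.24 to 0.090, Rrm1 from -0.24 to 0.11, Tipin from -0.10 to 0.21 and Uhrf1 from -0.19 to 0.073. Among named genes that kept their sign, leaving out 1 library moved others by over 1.5 times: Mcm10 ranged from -0.50 to -0.069, Mcm5 from -0.39 to -0.14, Mcm6 from -0.20 to -0.039, Rfc2 from -0.17 to -0.072, Rfc5 from -0.33 to -0.13, Tyms from -0.37 to -0.14, Chaf1b from 0.18 to 0.39, Orc5 from 0.28 to 0.55, Mcmbp from -0.45 to -0.13, Daxx from -0.38 to -0.17, Nasp from -0.49 to -0.18, Rif1 from 0.12 to 0.25, Atr from 0.061 to 0.25, Atrip from -0.29 to -0.12 and Top2a from -0.53 to -0.26. The causes were not tested.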
